A study of Homo sapiens with 8 samples.

Results

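The genes described here are 10 members of the NF-kB pathway chosen by name: the 5 subunits NFKB1, NFKB2, REL, RELA and RELB, the inhibitors NFKBIA and NFKBIE, and the induced genes TNFAIP2, TNFAIP3 and BIRC3. All probe sets that the platform's table gives to these symbols were taken, which gave 15 of the array's 22277 probe sets and covered 9 of the 10 genes. BIRC3, an inhibitor-of-apoptosis ubiquitin ligase, had no probe set under its symbol in that table and was not analysed here. The 9 measured genes stand among 11963 genes with a probe set of their own, and all 9 were among the 7696 genes tested.

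RNA levels were read on Affymetrix expression arrays in 4 groups of 2 arrays each. They were HUG1N cells given an shRNA (a short hairpin RNA that triggers degradation of a matching messenger RNA) against GATA6, HUG1N control cells, Caco-2 cells given the shRNA, and Caco-2 control cells. HUG1N, written HuG-1 in 1 label field, is the gastric cancer line of the series, and Caco-2 cells come from a colorectal adenocarcinoma and take on intestinal epithelial traits in culture. GATA6 is a zinc-finger transcription factor of gut epithelium, and the study asked what its loss changes in these cells. The labels describe infection and puromycin selection in the same words for all 8 samples, so what the control cells received is not stated, nor whether the shRNA was 1 construct or a pool. Separate cultures behind the 2 arrays of a group are not mentioned either, so the p-values rest on array-to-array spread, which may be technical.

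NF-kB is a family of dimeric transcription factors. In resting cells the dimers are held in the cytoplasm by inhibitors of the IkB family. Signals from tumour necrosis factor, interleukin 1 and Toll-like receptors activate a kinase complex that marks the inhibitors for destruction, and the freed dimers enter the nucleus. Among the genes they switch on are their own inhibitors, such as NFKBIA and TNFAIP3, so the pathway limits itself. In gut epithelium the pathway is known for its part in inflammation, survival and cancer.

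The DNA element that NF-kB binds, the kappa-B site, lies upstream of several of these genes, and the stretches below show where the letters of its consensus occur beside the start sites of the genes whose values follow. RefSeq's promoter windows (GRCh38.p14, 300 bases, 250 before to 50 after each start) held 8 of the 10 genes, RELB and NFKBIE being the other two. Matches to the 10-base kappa-B consensus were searched on both strands, and overlapping matches were merged into 1 site. At least 1 site was found in 6 of these 8 genes, against 7.09% of the 27305 genes with a window, and at least 2 sites in 1 window were found in 3 of the 8, against 0.366% of genes. NFKB2, TNFAIP3 and BIRC3 were the 3. The genes were chosen by name as members and induced genes of this pathway, so their higher share is no separate finding. The windows of RELA and TNFAIP2 held no match, which says only that these letters are not there. A match is a description of sequence and not a measured binding site. The stretches are printed on the gene's own strand, 5′ to 3′, with 10 bases on either side and the matching letters in capitals.
NFKB1, chr4:102501300-102501329, + strand, bases -59 to -30 from the start: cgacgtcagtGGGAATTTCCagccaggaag
NFKB2, chr10:102394461-102394519, + strand, bases -117 to -59: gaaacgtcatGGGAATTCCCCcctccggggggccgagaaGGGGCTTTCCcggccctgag
REL, chr2:60881517-60881547, + strand, bases -57 to -27: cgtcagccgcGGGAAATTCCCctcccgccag
NFKBIA, chr14:35404811-35404840, - strand, bases -91 to -62: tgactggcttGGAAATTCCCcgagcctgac
TNFAIP3, chr6:137867182-137867223, + strand, bases -77 to -36: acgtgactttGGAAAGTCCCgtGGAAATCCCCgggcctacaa
NFKB2 has 3 annotated starts, and the window of another of them held 2 further sites, beginning 176 and 21 bases before that start. Both sites of TNFAIP3 lie within 77 bases of its start. The matches of NFKBIA and TNFAIP3 read on the opposite strand, so their capitals are the reverse complement of a match.

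**Figure D1:**
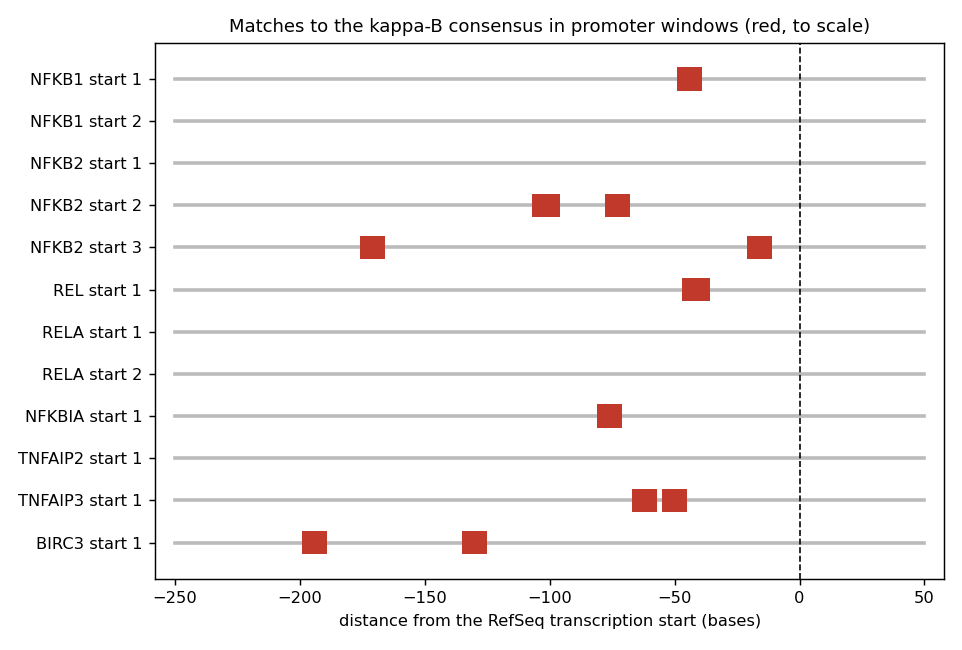
Matches to the kappa-B consensus (red boxes, to scale) in the RefSeq promoter windows of the 8 genes that have one, against distance from the transcription start in bases. NFKB2 (in 2 of its 3 windows), TNFAIP3 and BIRC3 hold 2 sites in a window, NFKB1, REL and NFKBIA hold 1, and RELA and TNFAIP2 hold none.

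All values below are log2 expression values on the authors' GCRMA scale, on which the lowest value an array can give is 2.08, and genes not over log2 4 on any array of a group have only a bound there. The targeted gene, GATA6, read 12.26 and 12.22 in HUG1N shRNA cells, against 12.54 and 12.45 in HUG1N control cells, a change of -0.25 (SE 0.10, limma adjusted p = 0.0879). In Caco-2 it read 12.23 and 12.02 in shRNA cells, against 12.63 and 12.45 in control cells, a change of -0.42 (SE 0.10, limma adjusted p = 0.0224), which missed the threshold without control replicate 1 (adjusted p = 0.112) and without shRNA replicate 2 (adjusted p = 0.0949). GATA6 was thus lower on both shRNA arrays of each line, by less than 1 log2 unit. All 5 epithelial markers were over log2 4 in every group. Their summed linear level was 137413 and 136964 in HUG1N shRNA cells, against 87049.8 and 90370.5 in HUG1N control cells. In Caco-2 it was 158345 and 162935 in shRNA cells, against 88687.4 and 91213 in control cells. The intestinal markers CDX2 and FABP1 were not over log2 4 on both arrays of either HUG1N group. In Caco-2 all 4 intestinal markers were. The intestinal sum was 1598 and 1638 in HUG1N shRNA cells, against 1338 and 1351 in HUG1N control cells. In Caco-2 it was 9326 and 9293 in shRNA cells, against 13935 and 13209 in control cells. Of 6 gastric markers, 5 were over log2 4 in HUG1N, against 3 in Caco-2. The gastric sum was 20914 and 25371 in HUG1N shRNA cells, against 31756 and 33415 in HUG1N control cells. In Caco-2 it was 358 and 417 in shRNA cells, against 3781 and 3997 in control cells. Of 13 measured immune markers, PTPRC, CD3E and MS4A1 among them, LYZ alone was over log2 4 on both arrays in HUG1N and in Caco-2 shRNA cells, and CD14 and LYZ were in Caco-2 control cells. The summed linear level of that list was 7750 and 8649 in HUG1N shRNA cells, against 5652 and 5402 in HUG1N control cells, and 253 and 231 in Caco-2 shRNA cells, against 906 and 687 in Caco-2 control cells. These sums follow LYZ. It read 12.91 and 13.07 in HUG1N shRNA cells, 12.45 and 12.39 in HUG1N control cells, 7.65 and 7.39 in Caco-2 shRNA cells, and 9.68 and 9.27 in Caco-2 control cells. PTPRC, which marks nearly all leukocytes, was at the floor of 2.08 on every array. Of 5 endothelial markers, at most 1 was over log2 4 on both arrays of any group. Of 12 fibroblast markers at most 2 were, with COL1A2, COL3A1, DCN and PDGFRB at or under it throughout. The summed linear level of the fibroblast list was 79.4 and 73.7 in HUG1N shRNA cells, against 157 and 129 in HUG1N control cells, where ACTA2 was over log2 4. In Caco-2 it was 241 and 264 in shRNA cells, where LUM read 7.45 and 7.62, against 77.7 and 73.9 in control cells, where LUM read 3.52 and 3.33. The part of these marker shifts in the results was not tested. In bulk RNA, fewer cells of a type and less RNA per cell cannot be told apart.

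The HUG1N shRNA arrays stood apart in technical readings. The gap between the 3′ and 5′ probe sets of ACTB, which is wider where the labelled RNA is shorter, was 3.73 ± 0.06 log2 units in HUG1N shRNA cells and 2.51 ± 0.23 in HUG1N control cells (SD, n = 2 each). In Caco-2 it was 1.55 ± 0.13 in shRNA cells and 1.92 ± 0.02 in control cells (SD, n = 2 each). The spiked hybridisation controls averaged 10.63 ± 0.03 in HUG1N shRNA cells and 12.51 ± 0.13 in HUG1N control cells, and 12.13 ± 0.10 in Caco-2 shRNA cells and 12.25 ± 0.13 in Caco-2 control cells (SD, n = 2 each). These readings move with every HUG1N result below, and their part in the results was not tested.

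In HUG1N, 7 of the 9 measured genes were lower in shRNA cells than in control cells and none was higher, among them RELA, NFKB2 and all 4 of the inhibitors and induced genes. In the same comparison limma called 48.7% of all tested genes, 23.9% lower and 24.7% higher. The median change of the 9 genes was -0.79, and that of all tested genes was 0. NFKB1 and RELB did not pass the test, and none of the 9 was higher at an unadjusted p under 0.05 either. At that threshold 2170 of all 7696 tested genes were higher and 2150 lower by limma.

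Among the subunits, the product of NFKB2 is the precursor that is cut to give the partner of RELB in the non-canonical branch of the pathway. NFKB2 read 6.78 and 7.17 in HUG1N shRNA cells, against 8.85 and 8.98 in HUG1N control cells. The groups were well apart, with shRNA cells at 26.0% of the control level (95% interval 16.9 to 39.8%; log2 change -1.94, SE 0.25, limma adjusted p = 0.00155). RELA, the transactivating subunit of the canonical dimer, read 9.89 and 9.89 in shRNA cells, against 10.59 and 10.77 in control cells. The groups did not overlap, and RELA stood at 57.8% of control (log2 change -0.79, SE 0.08, limma adjusted p = 7.04e-04).

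REL, the subunit best known from lymphocytes, read 7.27 and 7.10 in HUG1N shRNA cells, against 7.65 and 7.46 in HUG1N control cells, 77.4% of control (log2 change -0.37, SE 0.09, limma adjusted p = 0.0187). This was the smallest change called among the 9 genes, and it missed the threshold without control replicate 1 (adjusted p = 0.0824) and without shRNA replicate 2 (adjusted p = 0.0787). NFKB1, which encodes the precursor of RELA's usual partner, read 8.32 on both shRNA arrays, against 8.29 and 8.39 in control cells. Its change of -0.02 had a 95% interval of -0.31 to 0.27 (limma adjusted p = 0.925). RELB, the transactivating subunit of the non-canonical dimer, read 5.63 and 5.31 in shRNA cells, against 5.47 and 5.94 in control cells, and its groups overlapped (log2 change -0.24, 95% interval -0.70 to 0.23, limma adjusted p = 0.348).

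The 2 IkB inhibitors were both lower. NFKBIA, the classical IkB that is resynthesised after each round of activation, read 11.42 and 11.37 in HUG1N shRNA cells, against 11.94 and 12.20 in HUG1N control cells. That is 62.5% of control (95% interval 52.9 to 73.7%; log2 change -0.68, SE 0.10, limma adjusted p = 0.00227). NFKBIE, a related IkB with a preference for REL and RELA dimers, read 8.85 and 8.80 in shRNA cells, against 10.03 and 9.95 in control cells. It stood at 44.6% of control, with no overlap between the groups (log2 change -1.17, SE 0.11, limma adjusted p = 5.37e-04).

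TNFAIP3, a ubiquitin-editing enzyme that shuts the pathway off upstream of the IkB kinases, read 10.70 and 10.82 in HUG1N shRNA cells, against 12.06 and 12.10 in HUG1N control cells. It fell to 40.1% of control (95% interval 35.3 to 45.4%; log2 change -1.32, SE 0.07, limma adjusted p = 9.93e-05), the smallest adjusted p of the 9 genes in this comparison. TNFAIP2, a gene induced by tumour necrosis factor whose product acts in membrane protrusions, read 7.70 and 7.43 in shRNA cells, against 8.91 and 8.99 in control cells. It stood at 38.2% of control (log2 change -1.39, SE 0.14, limma adjusted p = 5.79e-04).

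**Figure D2:**
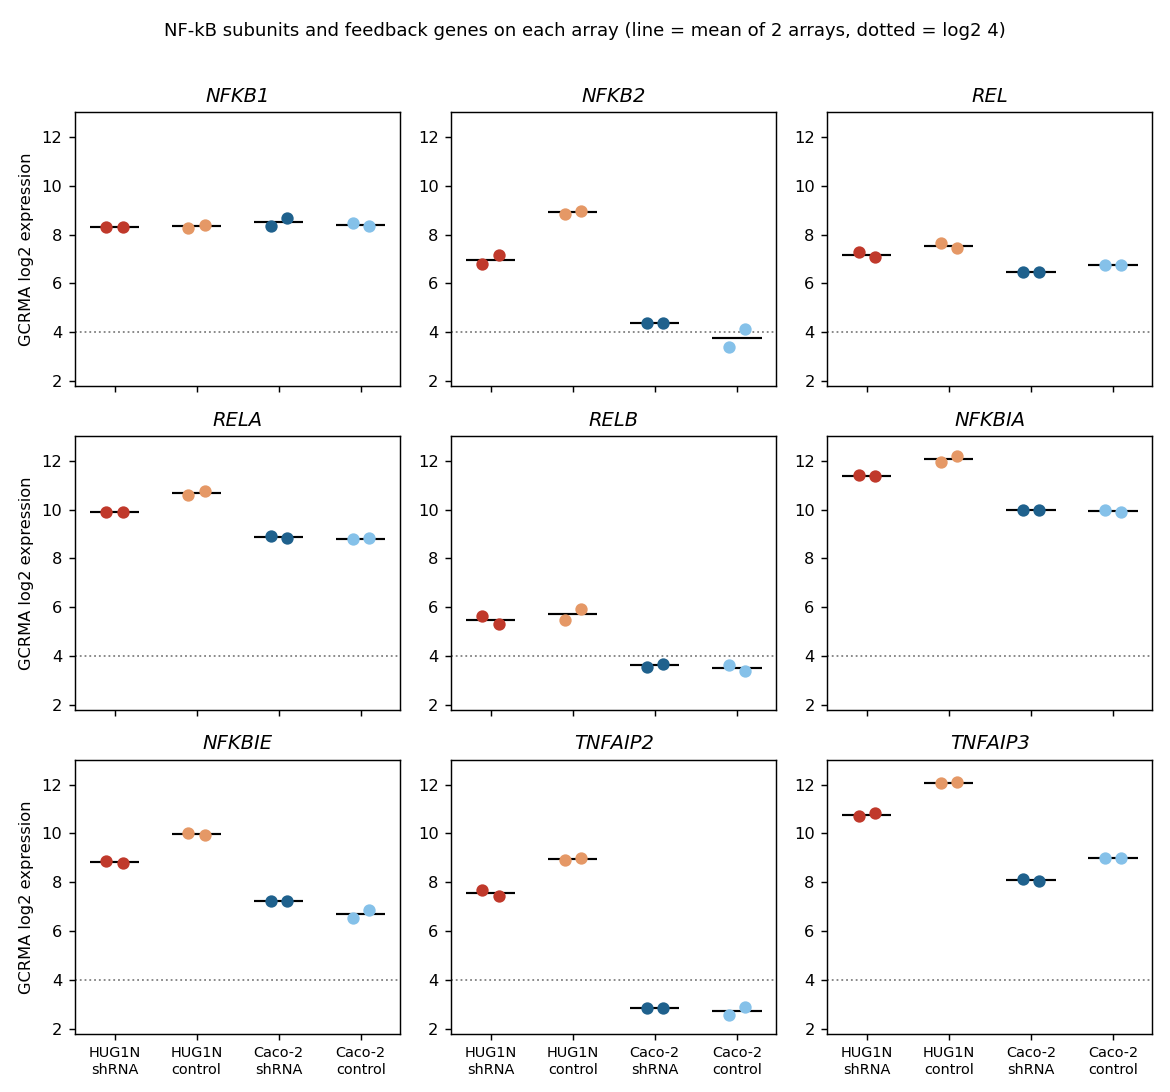
GCRMA log2 expression of the 9 measured genes on each of the 8 arrays, by group. Points are arrays, the short lines are means of 2 arrays, and the dotted line is log2 4. For 8 of the 9 genes the 2 HUG1N groups lie above both Caco-2 groups, while all arrays of NFKB1 lie between 8.29 and 8.69. RELB and TNFAIP2, among the 8, passed the filter through HUG1N arrays alone.

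In Caco-2 the same shRNA comparison gave a mixed picture. REL and TNFAIP3 were lower in shRNA cells, NFKBIE was higher, and the other 6 genes did not pass the test. Limma called 38.7% of all tested genes here, 19.5% higher and 19.2% lower, so 3 of 9 is near the share among all genes. The median change of the 9 genes was 0.12, and that of all tested genes was -0.003.

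TNFAIP3 read 8.15 and 8.06 in Caco-2 shRNA cells, against 8.99 and 9.004 in Caco-2 control cells. It stood at 53.9% of control (95% interval 47.6 to 61.2%; log2 change -0.89, SE 0.07, limma adjusted p = 3.73e-04). It was the largest of the 3 called changes in this line. REL read 6.49 and 6.46 in shRNA cells, against 6.77 and 6.78 in control cells, 81.3% of control (log2 change -0.30, SE 0.09, limma adjusted p = 0.0475). Leaving out any 1 of the 4 Caco-2 arrays ended that call, with adjusted p from 0.127 (without shRNA replicate 1) to 0.152 (without control replicate 2).

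NFKBIE ran the other way in Caco-2. It read 7.22 and 7.23 in shRNA cells, against 6.53 and 6.85 in control cells, 145% of control (log2 change 0.53, SE 0.11, limma adjusted p = 0.0121). Its adjusted p was 0.0541 without shRNA replicate 1 and 0.0558 without shRNA replicate 2. NFKB2 read 4.40 and 4.39 in shRNA cells, against 3.38 and 4.14 in control cells, so that only 1 of its 2 control arrays was over log2 4. Its change of 0.63 did not pass (SE 0.25, limma adjusted p = 0.0974). It passed without control replicate 2 (adjusted p = 0.0160), but that leaves 1 control array, under log2 4, whose spread is assumed to be that of the other groups, so no size is given.

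The other Caco-2 changes did not pass the test. RELA read 8.91 and 8.85 in shRNA cells, against 8.78 and 8.85 in control cells (log2 change 0.06, 95% interval -0.14 to 0.26). NFKBIA read 9.97 and 9.99 in shRNA cells, against 9.998 and 9.92 in control cells (log2 change 0.02, 95% interval -0.22 to 0.26). NFKB1 read 8.35 and 8.69 in shRNA cells, against 8.46 and 8.35 in control cells (log2 change 0.12, 95% interval -0.18 to 0.41). The shRNA and control arrays of these 3 genes overlapped. RELB (3.54 and 3.69 in shRNA cells, 3.62 and 3.38 in control cells) and TNFAIP2 (2.87 and 2.87 in shRNA cells, 2.55 and 2.88 in control cells) were not over log2 4 on any Caco-2 array, so no change can be given for them.

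Of the 9 genes, REL and TNFAIP3 were called lower in both lines, as were 6.89% of all tested genes. NFKBIE was called higher in Caco-2 and lower in HUG1N, as were 3.86% of tested genes. NFKB1 and RELB were called in neither line, as were 33.1%.

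**Figure D3:**
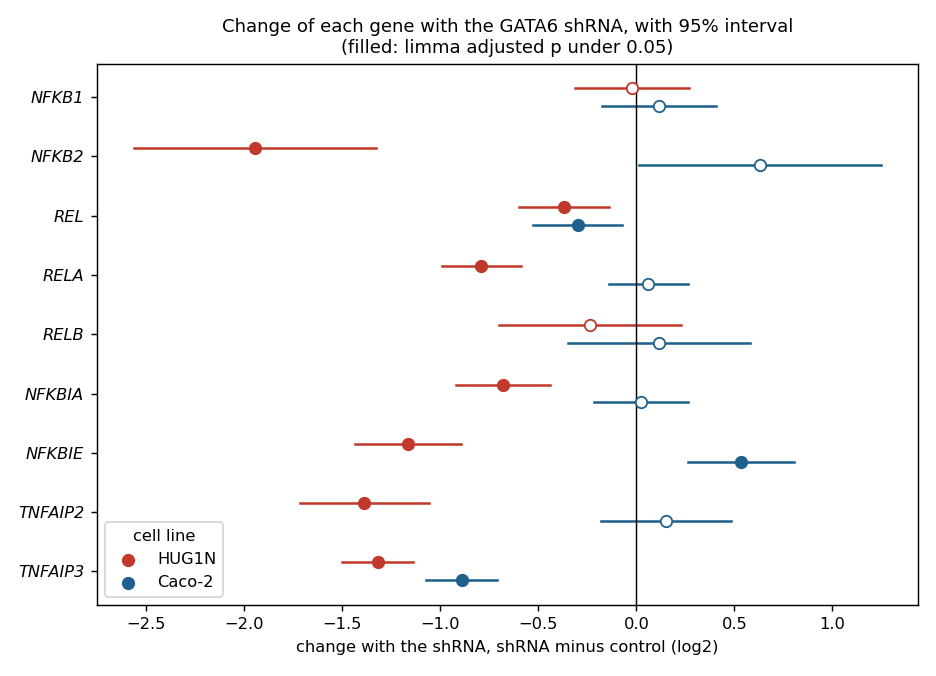
Change of each gene with the GATA6 shRNA, shRNA minus control in log2 units, in HUG1N (red, upper) and Caco-2 (blue, lower), with 95% intervals from limma. Filled points have an adjusted p under 0.05, which holds for 7 genes in HUG1N, all below 0, and for 3 genes in Caco-2. RELB and TNFAIP2 were not over log2 4 on any Caco-2 array.

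The difference between the effects was tested directly, as the change in HUG1N minus the change in Caco-2. It was negative and passed the test for 6 of the 9 genes and was called higher for none, also at an unadjusted p under 0.05. Among all tested genes limma called 44.9% in this comparison, 22.7% lower and 22.2% higher. At an unadjusted p under 0.05, 2071 of all 7696 tested genes were lower and 2034 higher. NFKB2 differed by -2.58 (SE 0.36, limma adjusted p = 0.00253), with 1 of its Caco-2 control arrays under log2 4. The value was -1.86 on its second probe set and -1.48 for the mean of its probe sets. In the second probe set HUG1N control was the only group over log2 4. The filter thus set its fall in HUG1N, and the size of -1.86 is not fixed. NFKBIE differed by -1.70 (SE 0.16, limma adjusted p = 6.23e-04), with opposite signs in the lines. TNFAIP2, counted among the 6, differed by -1.54. It was not over log2 4 on any Caco-2 array, so this call rests on Caco-2 levels under log2 4 and its size is not fixed. RELA differed by -0.85 (SE 0.12; -2.02, SE 0.50, on its second probe set) and NFKBIA by -0.70 (SE 0.14), with limma adjusted p of 0.00244 and 0.00867.

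TNFAIP3, lower in both lines, differed by -0.43 (SE 0.11, limma adjusted p = 0.0188). The call ended on leaving out Caco-2 control replicate 1 (adjusted p = 0.0585), Caco-2 control replicate 2 (0.0527), Caco-2 shRNA replicate 1 (0.0533) or HUG1N control replicate 2 (0.0510). For REL the difference was -0.07, with a 95% interval of -0.39 to 0.25 (limma adjusted p = 0.692). The difference of NFKB1 (-0.14, SE 0.17) did not pass, nor did that of RELB, for which no size is given because its Caco-2 arrays were not over log2 4.

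The lines were also compared without the shRNA. In control cells 8 of the 9 genes were higher in HUG1N than in Caco-2, and NFKB1 was the exception. HUG1N and Caco-2 control cells differed at 78.4% of all tested genes by limma, 37.1% higher and 41.3% lower in HUG1N. TNFAIP3 was 3.08 log2 units higher (8.48-fold, SE 0.07), NFKBIE 3.30 (9.83-fold, SE 0.11), NFKBIA 2.11 (4.33-fold, SE 0.10), RELA 1.86 (3.64-fold, SE 0.08) and REL 0.78 (1.72-fold, SE 0.09). RELA's second probe set gave 3.29 (SE 0.36). NFKB2 was 5.15 higher (SE 0.25), with 1 of its 2 Caco-2 control arrays over log2 4. Its second probe set gave 2.87 (SE 0.10) with no Caco-2 array over log2 4. That probe set passed the filter through HUG1N control arrays alone, so it had to be higher there. The limma adjusted p of these 6 genes was at most 3.01e-04.

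RELB and TNFAIP2 passed the filter through their HUG1N arrays alone, so they had to differ between the lines. Against log2 4, the mean of HUG1N control cells was at least 3.27-fold higher for RELB and at least 31.0-fold higher for TNFAIP2. These bounds make no allowance for the spread between arrays. NFKB1 differed by -0.07 (95% interval -0.36 to 0.22, limma adjusted p = 0.617).

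Between the shRNA cells of the lines, 8 of 9 genes were again higher in HUG1N, where limma called 77.0% of all tested genes, 36.2% higher and 40.9% lower. RELB and TNFAIP2 are among the 8 and had to be higher there, since they passed the filter through HUG1N arrays alone. The distance was 2.65 for TNFAIP3, 1.60 for NFKBIE, 1.41 for NFKBIA and 1.01 for RELA. NFKB1 was -0.20 (SE 0.12, adjusted p = 0.162), and it passed without Caco-2 shRNA replicate 1 (-0.37, adjusted p = 0.0155), where 1 array remains, whose spread is assumed to be that of the other groups, and the 2 arrays had read 8.35 and 8.69.

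The order of the 4 groups was thus nearly the same from gene to gene. HUG1N control cells were highest and HUG1N shRNA cells came next for NFKB2, REL, RELA, RELB, NFKBIA, NFKBIE, TNFAIP2 and TNFAIP3, and for 7 of these, all except RELB, the shRNA arrays lay wholly below the control arrays, as they did for 37.3% of all tested genes. Every HUG1N array lay above every Caco-2 array of the same treatment for the 8 genes, as for 43.0% of tested genes in control cells and 42.3% in shRNA cells. For RELB and TNFAIP2 this followed from the filter, passed through HUG1N arrays alone. Below the HUG1N groups, Caco-2 shRNA cells lay above Caco-2 control cells for NFKB2 and NFKBIE and below them for REL and TNFAIP3. These groups did not overlap, as for 36.0% of tested genes above and 37.5% below. The Caco-2 groups overlapped for RELA, RELB, NFKBIA and TNFAIP2. For NFKB1 each neighbouring pair of groups overlapped.

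Second probe sets gave another reading of some of these changes. NFKB2 also has 209636_at, which read 3.29 and 3.10 in HUG1N shRNA cells, against 5.18 and 5.02 in HUG1N control cells. Only the HUG1N control arrays were over log2 4 there. It passed the filter through them alone and could only be lower in HUG1N shRNA cells, so it gives no separate support. RELA's 209878_s_at read 6.86 and 5.71 in HUG1N shRNA cells, against 8.16 and 8.22 in control cells (log2 change -1.91, SE 0.36, limma adjusted p = 0.00666 over 12758 probe sets). Its size was larger than the -0.79 of the brighter RELA probe set, 201783_s_at, and its 2 shRNA arrays differed by over 1 log2 unit.

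TNFAIP3's 202643_s_at read 9.62 and 9.64 in HUG1N shRNA cells, against 11.23 and 11.04 in HUG1N control cells (log2 change -1.502, SE 0.26, limma adjusted p = 0.00509). In Caco-2 it read 6.27 and 5.87 in shRNA cells, against 7.62 and 6.85 in control cells (log2 change -1.16, SE 0.26, limma adjusted p = 0.0174). Both TNFAIP3 probe sets were thus lower with the shRNA in both lines, but the difference between lines did not pass for the second (-0.34, SE 0.37, adjusted p = 0.496). The probe sets 206035_at of REL, 211524_at of NFKB2 and 202509_s_at of TNFAIP2 were not over log2 4 on enough arrays to be tested. NFKB1, RELB, NFKBIA and NFKBIE had 1 probe set each.

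For the 3 genes called in both shRNA comparisons, the tested genes with the most similar pattern over the 8 arrays were found by the root mean square distance after each gene's own mean was subtracted. For TNFAIP3 they were HECA (distance 0.129 log2 units), XYLT1 (0.156) and GEM (0.188). HECA read 10.69 and 10.78 in HUG1N shRNA cells, 11.99 and 11.79 in HUG1N control cells, 8.22 and 7.79 in Caco-2 shRNA cells, and 9.03 and 8.95 in Caco-2 control cells. For NFKBIE they were RPS6KA5 (0.111), LDAF1 (0.203) and HLA-B (0.206). For REL they were TTC19 (0.0430), PARP4 (0.0760) and RHOT1 (0.101). These distances describe 8 arrays in which the difference between lines is the largest part of the pattern.

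The rest of the pathway was counted in 6 lists, read from the receptor inward. Beside them stand all tested genes, of which 23.9% were lower and 24.7% higher in HUG1N (median 0), and 19.2% lower and 19.5% higher in Caco-2 (median -0.003). Of 13 tested receptors, 6 were lower and 2 higher in HUG1N shRNA cells (median change -0.27), while 5 were higher and 2 lower in Caco-2 shRNA cells (median 0.28). TNFRSF1B, the second receptor for tumour necrosis factor, fell in both lines. It read 9.14 and 9.13 in HUG1N shRNA cells, against 10.28 and 10.18 in HUG1N control cells (log2 change -1.10, SE 0.10, limma adjusted p = 4.16e-04). In Caco-2 it read 5.79 and 5.54 in shRNA cells, against 7.71 and 7.73 in control cells (log2 change -2.05, SE 0.10). TNFRSF12A, the receptor for TWEAK, was 2.06 log2 units higher in Caco-2 shRNA cells (SE 0.10, limma adjusted p = 4.23e-05). Its change of 0.39 in HUG1N (adjusted p = 0.0194) was lost without HUG1N control replicate 1 (0.0628), control replicate 2 (0.0780) or shRNA replicate 1 (0.0829).

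TLR2, which senses bacterial lipoproteins, was at the floor on all HUG1N arrays. It was lower in Caco-2 shRNA cells, at 3.74 and 4.02, against 6.45 and 6.30 in Caco-2 control cells. The log2 change of -2.50 (SE 0.11) depends on the floor, since only 1 of the shRNA arrays was over log2 4. IL1RAP, the shared chain of interleukin 1 receptors, was lower in HUG1N shRNA cells (log2 change -1.30, SE 0.15), as was the TRAIL receptor TNFRSF10B (-0.74, SE 0.08). In Caco-2 neither passed (-0.17 and -0.18).

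Of 8 tested ligands, 4 were lower and 2 higher in HUG1N shRNA cells (median -0.31), and 2 were higher in Caco-2 shRNA cells (median 0.10). The filter set the direction of the HUG1N calls of IL1A, IL1B and TNFSF15. They passed it through HUG1N control arrays alone (IL1A and IL1B) or HUG1N shRNA arrays alone (TNFSF15). The interleukin 1 cytokines, which signal to NF-kB and are also its targets, had the largest changes of the list in HUG1N. IL1B read 2.17 on both HUG1N shRNA arrays, against 9.29 and 9.13 in HUG1N control cells, at least 37.0-fold lower. IL1A read 2.81 and 3.81 in HUG1N shRNA cells, against 8.72 and 8.65 in HUG1N control cells, at least 25.7-fold lower. Neither was over log2 4 on any Caco-2 array. Both thus passed the filter through HUG1N control arrays alone and could only be lower in HUG1N shRNA cells, so no p-value is given. LTB, a membrane-bound ligand of the non-canonical branch, was higher in Caco-2 shRNA cells, at 5.87 and 6.45, against 3.98 and 4.01 in Caco-2 control cells. Its log2 change of 2.16 (SE 0.22) depends on the floor, since only 1 of these control arrays was over log2 4. TNFSF9 was at least 1.17-fold higher in Caco-2 shRNA cells, a call that ended when values under log2 4 were raised to 4 (adjusted p = 0.343), and TNFSF15 at least 1.18-fold higher in HUG1N shRNA cells.

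Of 21 tested kinases and adaptors, 9 were lower and 3 higher in HUG1N shRNA cells (42.9 and 14.3%, median -0.14). In Caco-2 shRNA cells 4 were lower and 3 higher (19.0 and 14.3%, median -0.12), near the shares of all tested genes. RIPK2, the kinase downstream of NOD receptors, read 8.43 and 8.11 in HUG1N shRNA cells, against 9.89 and 10.06 in HUG1N control cells (log2 change -1.70, SE 0.13, limma adjusted p = 2.73e-04). RBCK1, a subunit of the linear ubiquitin ligase, was lower in HUG1N (-0.95, SE 0.07) and higher in Caco-2 (0.42, SE 0.07). TAB2, an adaptor of the kinase TAK1, was lower in HUG1N (-0.91, SE 0.08). IRAK1, a kinase of the interleukin 1 receptor, was lower in both lines, with changes of -0.69 in HUG1N and -0.91 in Caco-2 (SE 0.10 each). TRAF3, which restrains the non-canonical branch, was lower in Caco-2 (-1.06, SE 0.13), while its change in HUG1N was 0.30 (adjusted p = 0.104), and without either Caco-2 shRNA array, which changes the shared estimate of spread, that adjusted p was 0.0325.

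Of 13 other negative regulators, 4 were lower and none higher in HUG1N shRNA cells (median -0.21). None was higher by limma's unadjusted p under 0.05 either, at which 2170 of all 7696 tested genes were higher. In Caco-2 shRNA cells 8 were higher and 1 lower (median 0.40). TANK, a binding partner of TRAF proteins, was lower in HUG1N (-0.49, SE 0.07) and higher in Caco-2 (0.62, SE 0.07). TRAFD1 showed -0.59 in HUG1N and 0.57 in Caco-2 (SE 0.09 each), and both passed. PDLIM2, a ligase that targets nuclear RELA in mouse, was higher in Caco-2 (0.62, SE 0.09) and lower in HUG1N (-0.34, SE 0.09, adjusted p = 0.0189). That HUG1N call ended when control replicate 1 was left out (adjusted p = 0.0602), and likewise for control replicate 2 (0.0733) or shRNA replicate 2 (0.0597). OPTN, a ubiquitin-binding adaptor, was higher in Caco-2 (1.14, SE 0.07), as was TNIP2 (0.45, SE 0.06), a partner of TNFAIP3, and neither passed in HUG1N.

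Of the 3 tested IkB relatives, none passed in HUG1N and 2 were higher in Caco-2 shRNA cells. At an unadjusted p under 0.05 limma's test took in 2 of them in HUG1N, both toward lower values. They were NFKBIB (-0.19, SE 0.07) and NKIRAS2 (-0.26, SE 0.11). At that threshold 2150 of all 7696 tested genes were lower in HUG1N. NKIRAS2, a small GTPase-like protein that binds IkB, was 0.47 higher in Caco-2 (SE 0.11, adjusted p = 0.0156), and this was lost without Caco-2 control replicate 2 (0.0864) or shRNA replicate 2 (0.0780). NFKBIL1 was at least 1.45-fold higher in Caco-2 shRNA cells (adjusted p = 0.0265), and this was lost without control replicate 1 (0.118) or shRNA replicate 1 (0.123).

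The list of genes known as NF-kB targets moved in both directions. Of 35 tested, 14 were lower and 7 higher in HUG1N shRNA cells (median -0.17). In Caco-2 shRNA cells 20 were higher and 7 lower (median 0.55). CCL5 and PSMB9, among the 20, were not over log2 4 on any Caco-2 array, so no size is given for them there. CXCL8, a neutrophil chemokine, fell in both lines. It read 11.03 and 10.91 in HUG1N shRNA cells, against 11.86 and 11.87 in HUG1N control cells (log2 change -0.90, SE 0.10, limma adjusted p = 7.54e-04). In Caco-2 it read 3.55 and 3.68 in shRNA cells, against 7.67 and 7.47 in control cells, at least 11.9-fold lower (limma adjusted p = 3.31e-06).

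PTGS2, the inducible cyclooxygenase, read 8.31 and 8.31 in Caco-2 shRNA cells, against 5.32 and 5.23 in Caco-2 control cells (log2 change 3.04, SE 0.07). PLAUR, the urokinase receptor, read 8.38 and 8.55 in Caco-2 shRNA cells, against 5.18 and 5.29 in Caco-2 control cells (log2 change 3.22, SE 0.12). In HUG1N neither passed (0.21 and -0.17), although without HUG1N shRNA replicate 2 PTGS2 did (0.27, adjusted p = 0.0462). IL32, a cytokine of epithelium and lymphocytes, read 6.11 and 5.73 in HUG1N shRNA cells, against 8.50 and 8.62 in HUG1N control cells (log2 change -2.64, SE 0.17). The immunoproteasome subunit PSMB9 was lower in HUG1N shRNA cells (-2.04, SE 0.15), whereas the chemokine CCL5 was higher, at 6.69 and 7.01, against 4.31 and 4.15 in HUG1N control cells (log2 change 2.62, SE 0.12).

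**Figure D4:**
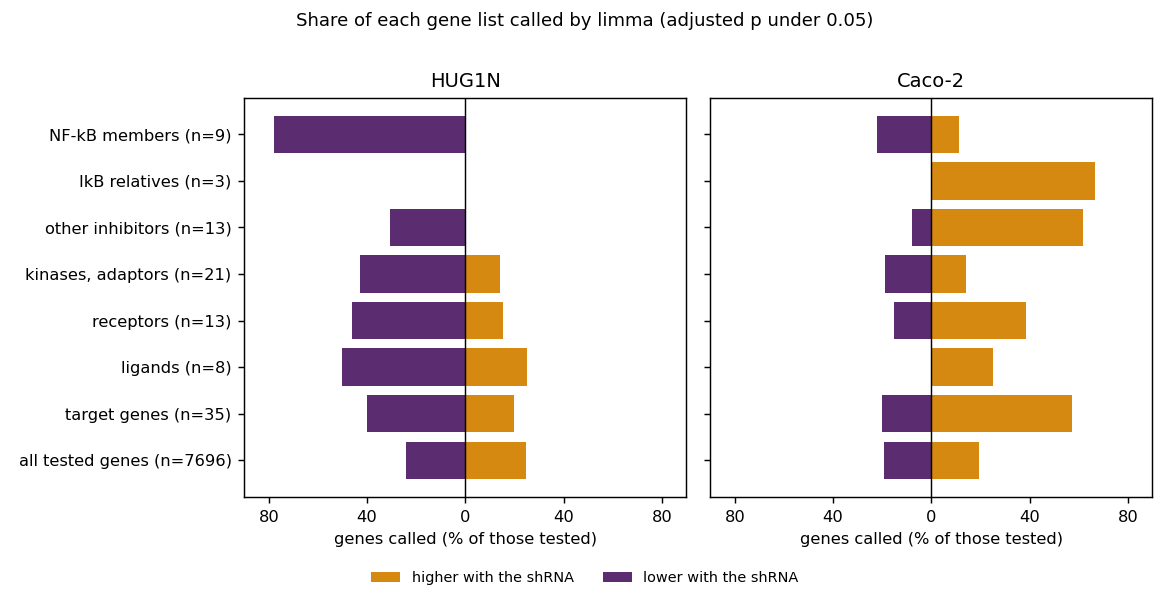
Share of each list's tested genes that limma called lower (purple, to the left) or higher (orange, to the right) with the shRNA, in HUG1N and in Caco-2, with n the genes tested. All tested genes are in the lowest bars, at 23.9% lower and 24.7% higher in HUG1N and 19.2% lower and 19.5% higher in Caco-2. Among the ligands, the filter set the direction of the HUG1N calls of IL1A, IL1B and TNFSF15. Among the targets, CCL5 and PSMB9 were called higher in Caco-2 without being over log2 4 on any Caco-2 array.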

How the data were processed

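The 8 arrays (2 per group) were analysed from the deposited log2 expression values, which the authors made with GCRMA per the submitters' processing notes. The GCRMA version is not given in the sources used here. GCRMA corrects background by probe base content and equalises arrays, so a change shared by most genes would be removed, and values near the floor of 2.08 understate changes. Of 22277 probe sets, 19070 had 1 gene symbol, 1043 several and 2164 none in the platform table, and 19058 matched a GRCh38.p14 gene table for current symbols. The brightest probe set stood for a gene, and genes over log2 4 in at least 2 arrays were tested. Tests used limma 3.58.1 in R 4.3.3 (lmFit on 4 group means, eBayes), with Benjamini-Hochberg adjustment over 7696 genes per comparison and calls at an adjusted p under 0.05. The fit was checked on simulated data with changes in a small part of the genes, independent noise and no difference between lines. That check does not cover comparisons in which as many genes differ as here. The number of arrays limits every value's precision.

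The members and lists were chosen with earlier results of these data known. Named were all members, GATA6 and, per list and line, at most 3 genes with the smallest p. Promoter sequence came from RefSeq (GRCh38.p14). Replicate numbers were not taken as pairs: deviations of same-numbered arrays correlated between -0.063 and 0.066. Alternatives covered the filter, scaling, variance model, probe set choice, values under log2 4 raised to 4, a minimum of 2-fold, the replicate block and leaving out each array.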

Additional observations from a re-analysis of the deposited data

Results flagged for a closer look

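For 33 of the 39 named genes, GATA6 included, the effect of the shRNA differed between the lines by limma's test of the difference itself (adjusted p at most 0.0395), as it did for 44.9% of all tested genes. Of these, 6 were among the 9 members. The other 27 of 30 were named for a small p in 1 line's comparison or in both, except the IkB relatives, where all 3 tested genes were named. Naming by the p of 1 line favours such differences, so their share is no finding. The values are the change in HUG1N minus the change in Caco-2 in log2 units. Among the NF-kB members they were -2.58 for NFKB2, -1.70 for NFKBIE, -1.54 for TNFAIP2, -0.85 for RELA, -0.70 for NFKBIA and -0.43 for TNFAIP3.

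Among targets they were -3.39 for PLAUR, -2.85 for PSMB9, -2.84 for PTGS2, -2.37 for IL32, 2.19 for CCL5 and 3.05 for CXCL8. Among ligands they were -7.04 for IL1B, -5.35 for IL1A, -2.19 for LTB, -1.26 for TNFSF9 and 1.74 for TNFSF15. Among receptors they were -1.66 for TNFRSF12A, -1.13 for IL1RAP, -0.56 for TNFRSF10B, 0.95 for TNFRSF1B and 2.50 for TLR2. Among kinases and adaptors they were -1.55 for RIPK2, -1.37 for RBCK1, -1.07 for TAB2 and 1.36 for TRAF3. Among inhibitors and IkB relatives they were -1.26 for OPTN, -1.16 for TRAFD1, -1.10 for TANK, -1.10 for NFKBIL1, -0.96 for PDLIM2, -0.73 for NKIRAS2 and -0.51 for TNIP2.

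Where a gene was not over log2 4 in a line (TNFAIP2, IL1A, IL1B, CCL5, PSMB9 and TNFSF15 in Caco-2, CXCL8 in Caco-2 shRNA cells, NFKBIL1 and TNFSF9 in Caco-2 control cells, IL1A and IL1B in HUG1N shRNA cells, TNFSF15 in HUG1N control cells, TLR2 in HUG1N), the size of the difference depends on the floor and is no fixed value. The same holds for NFKB2, LTB and TLR2, which had 1 array of a Caco-2 group over log2 4. IL1A and IL1B passed the filter through HUG1N control arrays alone, and TNFSF15 through HUG1N shRNA arrays alone. The filter thus set the direction of their changes in HUG1N. The 3′ to 5′ gap of ACTB and the spiked controls also differed most in HUG1N shRNA cells, and their part in these differences was not tested.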

How the results depend on the processing

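Over all alternatives 841 values of the members were recomputed, of which 796 kept direction and side of the threshold, 32 lost their call and 2 gained one. The sign changed in 11, in each of which neither value passed the test. Requiring at least a 2-fold change left 4 of the 9 genes called in HUG1N (NFKB2, NFKBIE, TNFAIP2 and TNFAIP3), 0 in Caco-2 and 3 for the difference between lines, where 11.7, 9.64 and 18.2% of all tested genes were called. TNFAIP2, not over log2 4 on any Caco-2 array, was among the 3 for the difference. Leaving out 1 array leaves a lone sample, assumed to vary like the other groups, so no counts are given for these fits. Member calls that were lost or gained without an array are given above with each gene. With the replicate number as a block, 7 genes were called in HUG1N, 3 in Caco-2 and 6 for the difference. The shares of all tested genes called were 46.8, 35.5 and 42.1%. In each comparison of lines 8 members were called, beside 77.6% of all tested genes in control cells and 76.3% in shRNA cells. The block thus changed no count of members.

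REL lost its call under the most alternatives, and the cause was not tested. Its HUG1N call was lost with a trended robust variance (adjusted p = 0.0501), with the 2 HUG1N groups alone (0.0806) and with the mean of its probe sets (-0.18, 0.0592). In Caco-2 it was lost without a filter (0.0874), with a trended robust variance (0.117), with all probe sets (0.0545) and with the mean of its probe sets (-0.15, 0.125). NFKBIE's Caco-2 call was lost with the 2 Caco-2 groups alone (0.0555), and TNFAIP3's difference with the mean of its probe sets (-0.38, 0.162). That mean, which takes in probe sets at the floor, gave HUG1N changes of -1.35 for RELA, -1.28 for NFKB2 and -0.82 for TNFAIP2. A filter at log2 6 left RELB untested.

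With 2 arrays a group, the smallest change that passes depends on each gene's spread. In Caco-2 a change of -0.30 (SE 0.09) for REL just passed, while 0.63 (SE 0.25) for NFKB2 did not. A gene that was not called may thus have changed by more than a called one, and genes near log2 4 give bounds.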
